A study of Homo sapiens with 36 samples.

Results

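The response of SW480 cells to JQ1 was measured by RNA sequencing. SW480 is a human colon adenocarcinoma line known to carry mutant APC. The comparison set 3 libraries of SW480 cells given 0.5 µM JQ1 for 24 h against 3 libraries of SW480 cells given DMSO, the solvent, for the same time. These are 6 of the 36 libraries of a study of 6 human colon cancer lines, in which COLO205, COLO320, HCT116, HCT15 and HT29 were treated in the same way, with 3 libraries per group. All cells were collected in log-phase growth. The labels say that treatments were in triplicate, but not whether these were separate cultures, so the p-values reflect no more than the scatter of these samples, and that scatter may be technical. SW480 is 1 line from 1 tumour, and its values describe that line alone.

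JQ1 displaces the BET proteins, such as BRD2 and BRD3, from chromatin by filling the pocket with which their bromodomains hold acetylated lysine. These proteins read acetylated chromatin and help to bring the kinase complex P-TEFb to promoters, where it releases paused RNA polymerase II. Genes that depend on strong enhancers, with MYC as the textbook case, are known to be sensitive to BET inhibition. HEXIM1, which holds P-TEFb inactive, is a widely used readout of the drug because its transcript goes up.

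Transcript levels were given as RPKM, reads per kilobase of transcript and per unit of a library divisor in reads. All genes with at least 1 RPKM in at least 3 of the 6 SW480 libraries were kept, which left 13186 of 26468 genes. At the edge of this rule, the third-highest RPKM of the 10 nearest genes ran from 1.0002 to 1.00685 inside and from 0.994218 to 0.999118 outside. Of the genes kept, 658 reached 1 RPKM in exactly 3 libraries, 235 of them in the 3 JQ1 libraries only and 357 in the 3 DMSO libraries only, so these had to differ. Among the genes named below these are ART5, ROPN1L, LINC00052, SERPINI1, H1-4, MXD4, BMF, DLL4 and SCT, kept through JQ1 libraries alone, and ZAP70, IL10, TNFRSF11B, RLBP1, CSF2, BATF, CEACAM1, TFEB and IFITM1, kept through DMSO libraries alone. Their values are a description, and the separation of their groups is no support for a change. Changes are differences of log2(RPKM + 0.5), JQ1 minus DMSO, and folds are on that scale, where the folds of genes with low RPKM come out too small. A gene was called higher or lower at an adjusted p under 0.05 with limma, adjusted by Benjamini-Hochberg over all genes tested.

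The JQ1 libraries held 24.1 to 26.6 M reads in genes and the DMSO libraries 23.7 to 24.9 M. Across genes, replicates of a group had r between 0.995 and 0.996, and the first principal component, which separated JQ1 from DMSO, took 91.1% of the variance. Mitochondrial genes took 2.17% to 2.39% of reads in JQ1 libraries and 1.88% to 2.08% in DMSO libraries. The cells carried keratins and other markers of colon epithelium, of which 7 of 12 passed the filter, but KRT20, CDX1, CDH17, LGALS4 and CEACAM5 did not. Of the markers of fibroblasts 1 of 8 passed, of leukocytes 1 of 8 and of endothelium 0 of 6. Their summed levels lay between 1.66 and 1.94 RPKM with JQ1 and 1.51 and 1.72 RPKM with DMSO for fibroblasts, between 1.66 and 2.75 RPKM with JQ1 and 1.78 and 2.27 RPKM with DMSO for leukocytes, and between 0.129 and 0.183 RPKM with JQ1 and 0.166 and 0.268 RPKM with DMSO for endothelium. At 0 in all 6 libraries were 2 fibroblast markers and 1 leukocyte marker.

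Most of the transcriptome of SW480 cells moved with JQ1, mostly by less than 2-fold. Of the genes tested, 4745 (36%) were higher with JQ1 and 5482 (41.6%) were lower, which together is 77.6%. A change of 2-fold or more was seen in 487 genes (3.69%) that were higher and 739 (5.6%) that were lower. The median log2 change over all tested genes was −0.03. In bulk libraries, fewer cells of a type or phase and less RNA per cell cannot be told apart. Because such a large share of genes was called, the counts of called members that follow are to be read against these shares. For the same reason, libraries of JQ1 and DMSO that lie apart in a gene do not set that gene apart from other called genes.

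**Figure D1:**
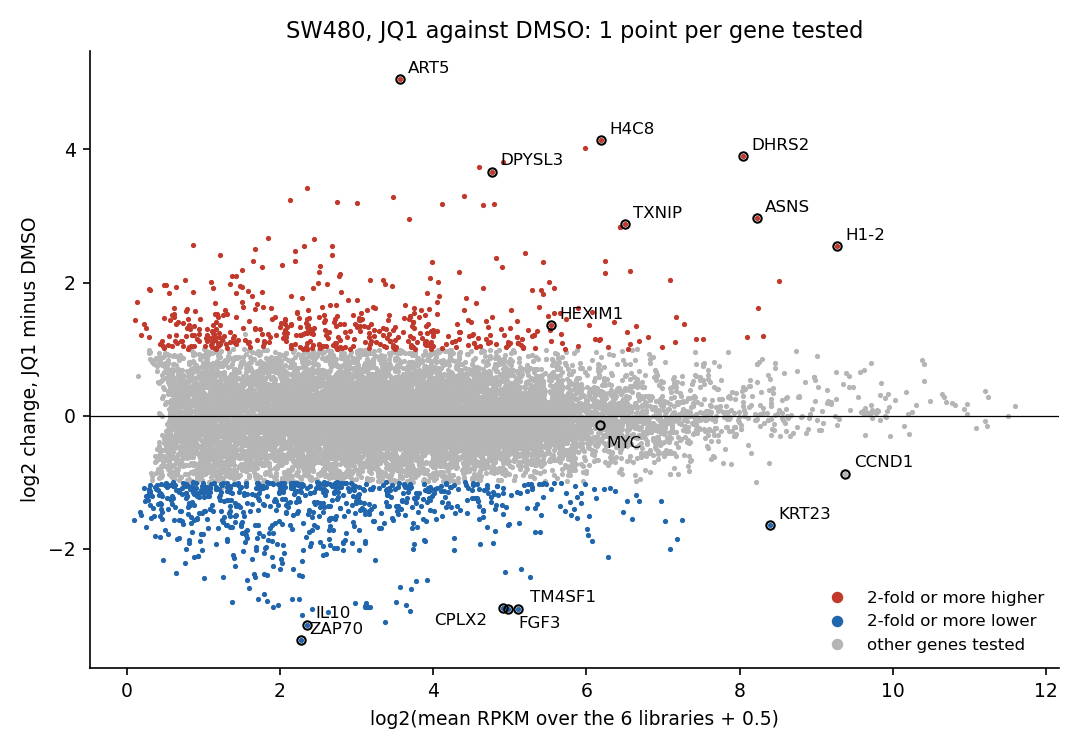
Each point is 1 of the 13186 genes tested in SW480 cells, with its mean level over the 6 libraries on the horizontal axis, as log2(RPKM + 0.5), and its log2 change, JQ1 minus DMSO, on the vertical axis. Genes called and 2-fold or more higher (487, red) or lower (739, blue) are coloured, and the named genes are circled: ART5 lies highest at 5.06 and ZAP70 lowest at −3.37, while MYC lies near 0.

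The largest rise outside the histone genes was that of ART5, an ADP-ribosyltransferase. ART5 stood at 21.4, 23.9 and 22.2 RPKM in JQ1 libraries, against 0.216, 0.201 and 0.148 RPKM in DMSO libraries, which rested on 2797 and 23 reads in all. Its log2 change was 5.06 ± 0.06 (SE), but all DMSO libraries lay under 1 RPKM, so that the gene had to differ by the filter. DHRS2, a short-chain dehydrogenase, stood at 487.8, 493 and 501 RPKM with JQ1 and 32.0, 33.6 and 32.6 RPKM with DMSO, a 14.9-fold rise (limma adjusted p = 1.1e-10). Unlike ART5 it was already well above 1 RPKM in every DMSO library. DPYSL3, a regulator of the neuronal cytoskeleton, rose 12.7-fold to 50.2 ± 0.292 RPKM with JQ1, against 3.50 ± 0.0627 RPKM with DMSO (SD, n = 3 each). TXNIP, an inhibitor of thioredoxin and of glucose uptake, rose 7.36-fold to 158.9 ± 0.797 RPKM with JQ1, against 21.2 ± 0.923 RPKM with DMSO. The other large rises were those of EFR3B (log2 change 3.29), ASNS (2.97), ROPN1L (2.67), FGFR3, a fibroblast growth factor receptor (2.65), the non-coding LINC00052 (2.56) and AHNAK2 (2.55).

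The largest fall was that of ZAP70, a kinase best known from T cell receptor signalling. ZAP70 stood at 0.247, 0.446 and 0.382 RPKM in JQ1 libraries and at 8.74, 8.11 and 8.11 RPKM in DMSO libraries, 10.3-fold lower with JQ1. IL10, an anti-inflammatory cytokine, stood at 0.458, 0.61 and 0.572 RPKM with JQ1 and at 8.56, 8.80 and 8.72 RPKM with DMSO, 8.8-fold lower. Both genes lay under 1 RPKM in every JQ1 library and passed the filter through the DMSO libraries alone, so they had to differ. Among more abundant transcripts, the growth factor gene FGF3 fell 7.49-fold to 6.95 ± 0.409 RPKM with JQ1, against 55.3 ± 2.80 RPKM with DMSO (SD, n = 3 each). CPLX2, a synaptic vesicle protein, fell 7.4-fold to 6.69 ± 0.222 RPKM with JQ1, against 52.7 ± 1.05 RPKM with DMSO. TM4SF1, a tetraspanin-like surface protein, fell 7.46-fold to 7.66 ± 0.814 RPKM with JQ1, against 60.2 ± 1.60 RPKM with DMSO. The calcium channel gene TRPV2, the decoy receptor gene TNFRSF11B, EPS8L3, SEMA6B and RLBP1 completed the 10 largest falls, with log2 changes between −3.10 and −2.91.

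BET readout genes moved while MYC itself barely did. HEXIM1 stood at 66.9, 65.4 and 67.1 RPKM in JQ1 libraries and at 26.2, 24.5 and 25.7 RPKM in DMSO libraries, a 2.58-fold rise (limma adjusted p = 1.8e-08). SERPINI1, a neuronal serine protease inhibitor and another gene that BET inhibitors are known to raise, stood at 7.36, 7.27 and 7.17 RPKM with JQ1 and at 0.735, 0.987 and 0.971 RPKM with DMSO, a 5.58-fold rise. SERPINI1 lay under 1 RPKM in every DMSO library and had to differ by the filter. For HEXIM1, the log2 change in the other 5 lines lay between 1.06 and 2.67. Its change in SW480, 1.37, lay 0.50 ± 0.03 (SE) below their mean. The SE of such differences pools the scatter of libraries over all 6 lines and does not cover the spread between the other lines. MYC stood at 68.0, 68.8 and 68.9 RPKM in JQ1 libraries and at 77.5, 75.6 and 74.4 RPKM in DMSO libraries. The fall was 1.11-fold, a log2 change of −0.14 ± 0.02 (SE, limma adjusted p = 0.000775). In the other 5 lines the log2 change of MYC lay between −1.35 and −0.65. The SW480 change lay 0.82 ± 0.03 above their mean (SE, limma adjusted p = 6.1e-21 for a difference from 0), though not by more than 2-fold.

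Within the list of 27 tested BET and elongation genes, 12 were higher (44%) and 11 lower (41%), with a median log2 change of 0.08. These shares lay near those of all tested genes, 36% and 41.6%. BRD2, a target of the drug, rose by 0.54 on the log2 scale. ELL2, a subunit of the super elongation complex, rose by 1.26, and MLLT3, another elongation complex subunit, by 0.76. ZMYND8, a chromatin reader, fell to 10.7, 10.6 and 10.6 RPKM in JQ1 libraries, against 29.4, 29.2 and 28.9 RPKM in DMSO libraries. HEXIM2, the paralogue of HEXIM1, fell by 1.05 and NELFCD, a subunit of the pausing factor NELF, by 1.03 on the log2 scale. HEXIM1 and HEXIM2 thus moved in opposite directions.

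MYC's targets were lower on balance, while the counts for its partners lay near those of all tested genes. Of 13 tested genes of the MYC network 6 were higher (46%) and 5 lower (38%), against 36% and 41.6% of all tested genes. MXD4, a repressor that competes with MYC for its partner MAX, rose to 3.50, 3.67 and 4.35 RPKM with JQ1, against 0.923, 0.812 and 0.931 RPKM with DMSO. MLX, a MAX-like partner of the MondoA group, fell by 0.60 on the log2 scale. Of 24 MYC targets 18 were lower and 3 higher, with a median log2 change of −0.23. The folate carrier gene SLC19A1 fell by 1.58, the cell cycle kinase gene CDK4 by 0.88 and the nucleotide kinase gene NME1 by 0.76 on the log2 scale. ODC1, the first enzyme of polyamine synthesis, was 1 of the 3 that rose, by 0.27, and LDHA, lactate dehydrogenase, rose by 0.13 but lay at −0.04 after quantile scaling, where it was not called. Of 35 ribosome biogenesis genes 22 were lower and 4 higher, with a median of −0.21. TCOF1, a nucleolar factor for ribosomal RNA transcription, fell by 0.83 and MRTO4, a ribosome assembly factor, by 0.77. Of 20 ribosomal protein genes 10 were higher and 1, RPS27A, was lower.

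**Figure D2:**
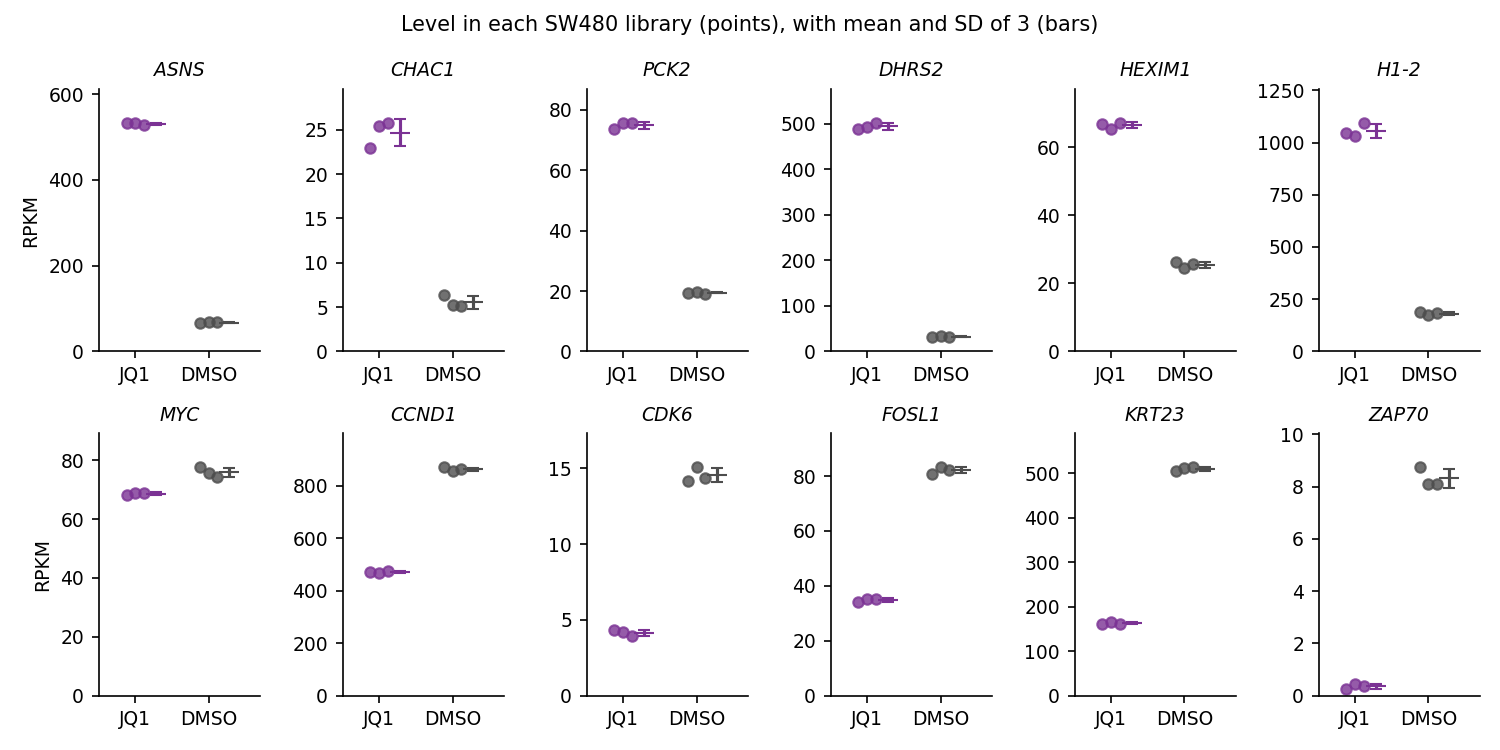
Each panel shows 1 gene in SW480 cells, with RPKM on a linear axis from 0, the 3 JQ1 libraries as purple points on the left and the 3 DMSO libraries as grey points on the right, and the mean and SD of each group beside them. Each gene shown was picked from those called, and ZAP70 had to differ by the filter. ASNS lies near 530.5 RPKM with JQ1 and 67.4 RPKM with DMSO, while the MYC groups lie close together at 68.6 and 75.8 RPKM.

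Replication-dependent histone genes made up the group with the largest rises. These genes encode the core and linker histones made in S phase, their mRNAs normally end in a stem-loop rather than a poly(A) tail, and many have near-identical copies, so single members are uncertain. Of 70 genes listed, 40 passed the filter, 12 of them at 1 RPKM in the JQ1 libraries alone. All 40 were higher and 38 were 2-fold or more higher, with a median log2 change of 2.20, but those 12 had to differ by the filter. Of the 30 that did not pass, 21 had the higher mean with JQ1 and 5 were at 0 in all 6 libraries. Summed over the 70 genes, JQ1 libraries held 2719, 2705 and 2800 RPKM and DMSO libraries 518.8, 491.3 and 503.8 RPKM. As a share of reads this was 0.207% to 0.213% with JQ1 and 0.0395% to 0.0415% with DMSO.

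The linker histone gene H1-2 made up much of that sum. It stood at 1046, 1030 and 1092 RPKM in JQ1 libraries and at 186.9, 172.2 and 181.8 RPKM in DMSO libraries, a 5.85-fold rise (limma adjusted p = 2.4e-09), the largest rise of any tested gene in RPKM. The largest folds were those of H4C8, which rose 17.6-fold to 137.9 ± 3.81 RPKM with JQ1, against 7.40 ± 0.786 RPKM with DMSO (SD, n = 3 each), and of H2BC8, H3C10 and H1-4, with log2 changes of 3.81, 3.74 and 3.42. Of 14 histone variants, which are made outside S phase as well, 10 were higher and 4 lower. H1-10 rose by 1.48 and H2AJ by 1.07 on the log2 scale. MACROH2A2 and MACROH2A1, large variants of silent chromatin, went the other way, falling by 1.46 and 0.56, as did the centromeric variant CENPA, by 0.30.

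The amino acid response rose in SW480 cells. In this pathway, the kinases EIF2AK4 (GCN2) and EIF2AK3 (PERK) phosphorylate the initiation factor eIF2 when amino acids are short or proteins misfold. Translation of the transcription factor ATF4 then goes up, and ATF4 turns on genes for amino acid synthesis, import and tRNA charging through CEBP-ATF sites in their promoters. Of the 39 genes of the list that were tested, 28 were higher and 5 lower, 11 were 2-fold or more higher, and the median log2 change was 0.50.

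The largest rises of the list were those of ASNS, CHAC1 and PCK2, with log2 changes of 2.97, 2.06 and 1.92. ASNS, asparagine synthetase, stood at 532.3, 531.8 and 527.5 RPKM in JQ1 libraries and at 65.7, 67.7 and 68.8 RPKM in DMSO libraries, a 7.82-fold rise (limma adjusted p = 2.1e-10). PCK2, a mitochondrial enzyme that makes phosphoenolpyruvate, stood at 73.6, 75.6 and 75.5 RPKM with JQ1 and at 19.5, 19.7 and 19.2 RPKM with DMSO. The JQ1 libraries differed little among themselves and lay above all DMSO libraries in both genes. PSAT1 and PHGDH, enzymes of serine synthesis, CTH, of cysteine synthesis, and MTHFD2, of mitochondrial folate metabolism, were chosen for naming after their values were seen, and rose by 1.16, 0.77, 1.46 and 0.86 on the log2 scale. SLC7A11, the cystine importer, stood at 5.69, 5.78 and 5.74 RPKM with JQ1 and at 2.86, 3.05 and 2.90 RPKM with DMSO.

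Stress regulators downstream of ATF4 rose as well. CHAC1, an enzyme that degrades glutathione, stood at 22.9, 25.4 and 25.7 RPKM in JQ1 libraries and at 6.36, 5.19 and 5.07 RPKM in DMSO libraries (log2 change 2.06 ± 0.08, SE, limma adjusted p = 2.1e-07). SESN2, a leucine sensor that restrains mTORC1, stood at 19.3, 19.98 and 20.3 RPKM with JQ1 and at 6.41, 5.97 and 6.08 RPKM with DMSO. DDIT4, an mTORC1 inhibitor, and the transcription factor genes ATF3 and DDIT3, also named after their values were seen, rose by 1.59, 1.47 and 1.21. The transcript of ATF4 itself stood at 88.5, 90.7 and 87.7 RPKM with JQ1 and at 58.8, 59.0 and 61.3 RPKM with DMSO, a 1.49-fold rise (limma adjusted p = 4.4e-07). ATF5, a relative of ATF4, fell by 0.46, the kinase gene EIF2AK4 by 0.25 and the proline synthesis gene ALDH18A1 by 0.18.

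**Figure D3:**
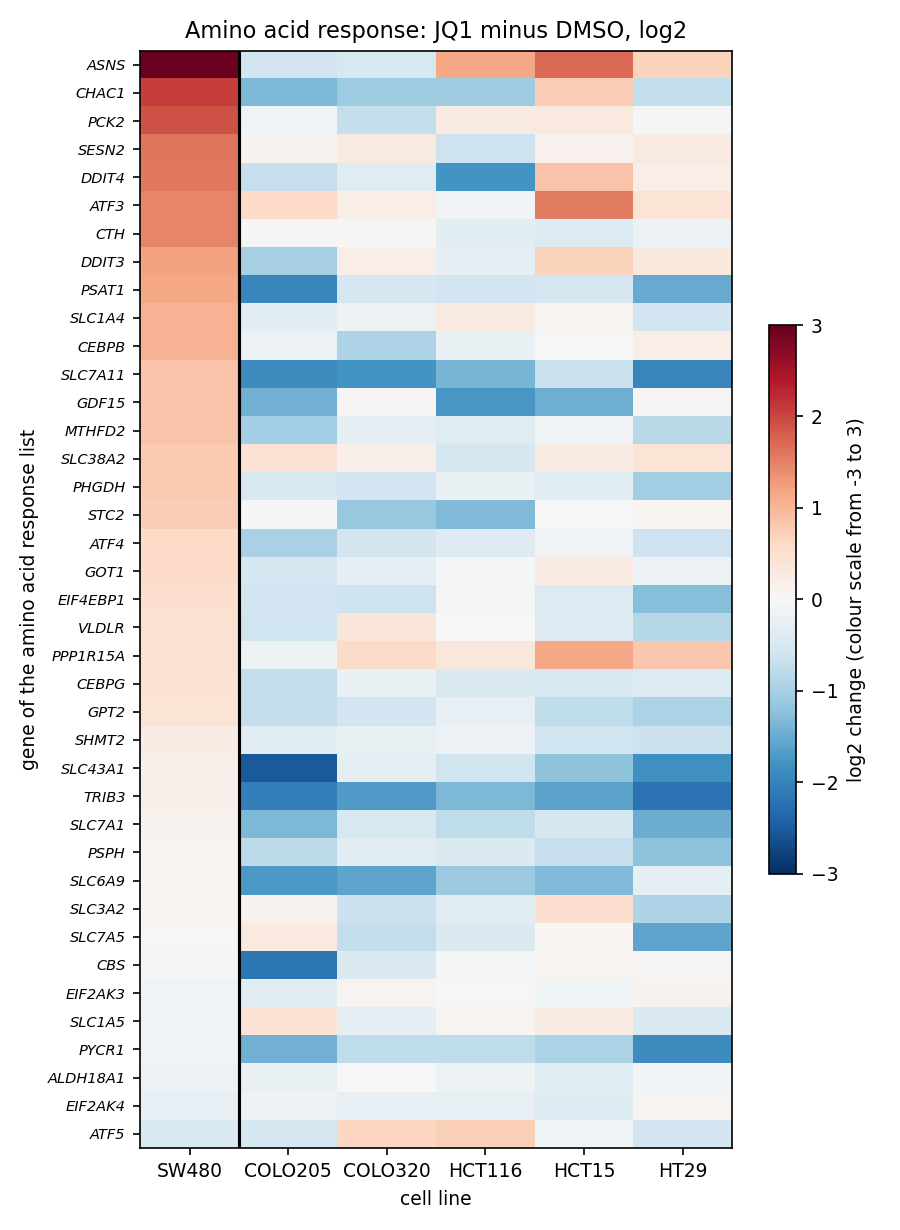
Rows are the 39 tested genes of the amino acid response list, ordered by their change in SW480 cells, and columns are the 6 cell lines, with SW480 left of the black line. Colour gives the log2 change, JQ1 minus DMSO, from −3 (blue) to 3 (red): the SW480 column has 31 genes above 0, while the other lines have 6 to 15.

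In each of the other lines the median of the list lay below 0. The median log2 change of the same 39 genes was 0.50 in SW480, against −0.56 in COLO205, −0.33 in COLO320, −0.34 in HCT116, −0.13 in HCT15 and −0.42 in HT29. Over all tested genes the median was −0.03 in SW480 and between −0.01 and 0.01 in the other lines. The SW480 change was above the mean of the other 5 by more than 2-fold in 18 of the 39 genes, or 46.2%. The rule was limma treat with an adjusted p under 0.05 over all tested genes. By that rule 98 genes, or 0.743% of all tested genes, were above the mean, these 18 among them. The list was chosen with earlier results of these data known, so the contrast is a description only. Of these 18 genes, 17 were called higher in SW480, 16 had a mean change below 0 over the other lines and 8 had a change below 0 in each of the other lines. The difference was 2.76 ± 0.12 for CHAC1, 2.48 ± 0.05 for ASNS, 2.40 ± 0.05 for SLC7A11, 2.16 ± 0.04 for PSAT1 and 1.98 ± 0.04 for PCK2 on the log2 scale (SE).

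The genes differed in how the other lines behaved. ASNS was also higher with JQ1 in HCT15, HCT116 and HT29. It stood at 216.8 ± 7.91 RPKM with JQ1 against 66.9 ± 1.17 RPKM with DMSO in HCT15 (SD, n = 3 each). In HCT116 it stood at 180.1 ± 7.45 RPKM with JQ1 against 80.1 ± 5.86 RPKM with DMSO. In HT29 it stood at 63.6 ± 1.09 RPKM with JQ1 against 40.2 ± 0.307 RPKM with DMSO. Its log2 changes in COLO205 and COLO320 were −0.57 and −0.48. In DMSO, the ASNS level in SW480, 67.4 ± 1.59 RPKM, lay within the range of the other lines, 29.3 to 80.1 RPKM. With JQ1 it was higher in SW480 than in any other line. This did not hold for each gene. In DMSO, SLC7A11 and ATF4 were lower in SW480, at 2.94 and 59.7 RPKM, than in any other line. The other lines had 3.79 to 17.8 RPKM of SLC7A11 and 64.6 to 122.9 RPKM of ATF4 in DMSO. The SW480 levels with JQ1, 5.74 and 89.0 RPKM, lay within those ranges. With JQ1, CHAC1 was higher in HCT15, at 27.8 RPKM, than in SW480, at 24.7 RPKM. PSAT1 was lower with JQ1 in each of the other lines, with log2 changes from −1.95 to −0.49. TRIB3, a pseudokinase that dampens ATF4 and was named after its values were seen, had a log2 change of 0.15 in SW480, with 27.2 ± 1.29 RPKM with JQ1 and 24.4 ± 1.24 RPKM with DMSO, and log2 changes between −2.21 and −1.36 in the other lines. Its limma adjusted p in SW480 was 0.0204, and between 0.0616 and 0.0713 without DMSO replicate 2, JQ1 replicate 2 or JQ1 replicate 3. The difference from the other lines thus came from a large rise in SW480 for ASNS, and for TRIB3 from lower levels with JQ1 in the other lines.

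The promoters of some of these genes hold a CEBP-ATF motif, and sequences around it are shown as a description. The 250 bases before and 50 after each RefSeq start (GRCh38.p14) were searched on both strands for TGATGNAA. The motif was found in 6 of 33 promoters of the amino acid response list that were in the table (18.2%) and in 6 of 16 of the cytosolic tRNA synthetases (37.5%). It was found in 1.48% of the promoters of all tested genes and in 3.67% of all 27305 promoters. Among tested genes 2-fold or more higher 2.32% held it, and among those 2-fold or more lower 1.7%. A match is a description of the sequence and was not tested as a binding site. The stretches below are 80 bases long, 5′ to 3′ on the strand of the gene, with the motif in capitals, which reads TTNCATCA where it lies on the opposite strand. They lie at chr7:97872433-97872512 (minus strand) for ASNS, chr15:40953226-40953305 (plus) for CHAC1, chr1:212565180-212565259 (plus) for ATF3, chr10:99430779-99430858 (minus) for GOT1 and chr16:70289650-70289729 (minus) for AARS1.
ASNS: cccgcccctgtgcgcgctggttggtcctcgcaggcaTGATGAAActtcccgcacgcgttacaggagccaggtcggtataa
CHAC1: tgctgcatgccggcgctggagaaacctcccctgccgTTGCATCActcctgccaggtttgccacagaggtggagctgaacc
ATF3: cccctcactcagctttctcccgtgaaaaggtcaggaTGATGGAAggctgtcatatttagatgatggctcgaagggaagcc
GOT1: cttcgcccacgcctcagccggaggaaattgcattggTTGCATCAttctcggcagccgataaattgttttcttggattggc
AARS1: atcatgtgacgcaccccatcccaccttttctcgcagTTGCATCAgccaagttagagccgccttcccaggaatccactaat
The motif begins 68 bases before the start in ASNS and between 187 and 209 bases before it in the other 4. These 5 genes rose by 2.97, 2.06, 1.47, 0.57 and 1.13 on the log2 scale, in the order shown. They are those in which all 80 bases lie before the start. In the other 7 genes with the motif it lies nearer to the start or after it, and their log2 changes were 0.05 for SLC3A2, 0.11 for SLC7A1, 0.54 for CARS1, 0.13 for MARS1, 0.03 for NARS1, 0.42 for TARS1 and −0.38 for IARS1. The motif was thus also present in genes whose change was near 0 or below it. GOT1, an aspartate aminotransferase, was named for its sequence.

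Aminoacyl-tRNA synthetases, which load amino acids onto tRNAs, were split. Of 20 cytosolic ones 11 were higher and 6 lower, with a median log2 change of 0.16. AARS1, for alanine, stood at 96.7, 99.8 and 97.7 RPKM in JQ1 libraries and at 44.7, 43.9 and 44.8 RPKM in DMSO libraries, and GARS1, for glycine, rose 1.73-fold. These were the 2 members more than 2-fold above the mean of the other lines, by 1.44 and 1.11 on the log2 scale. IARS1, for isoleucine, whose promoter also holds the motif, fell by 0.38. Chaperones of the endoplasmic reticulum, the other branch of the response to misfolded proteins, had a median log2 change of −0.003. Of these 20 genes 9 were higher (45%) and 6 lower (30%), against 36% and 41.6% of all tested genes. ERN1, the sensor IRE1, rose by 0.99, and the co-chaperone gene DNAJB11 fell by 0.68.

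Genes of the G1 to S transition and of DNA replication were lower with JQ1. Of 19 tested cyclins, kinases and E2F factors of G1 and S phase, 16 were lower and the other 3 were not called, with a median log2 change of −0.63. CCND1, cyclin D1, stood at 470.6, 466.7 and 476.2 RPKM in JQ1 libraries and at 869.4, 856.7 and 862.3 RPKM in DMSO libraries, a 1.83-fold fall and the largest fall of any tested gene in RPKM. CDK6, a kinase partner of cyclin D1, stood at 4.30, 4.23 and 3.92 RPKM with JQ1 and at 14.2, 15.1 and 14.4 RPKM with DMSO, a 3.23-fold fall (limma adjusted p = 3.7e-08). Both groups of libraries were tight and far apart in these genes. The CDK6 change was 1.52 ± 0.04 below the mean of the other lines on the log2 scale (SE). The transcription factor genes E2F2 and E2F8 fell by 1.44 and 1.19, and CDC25A, a phosphatase that activates CDK2, by 1.13.

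Of 36 genes of replication licensing and synthesis 30 were lower and 3 higher, with a median of −0.46. POLE2, a subunit of DNA polymerase epsilon, fell by 1.44 on the log2 scale, MCM5, of the replicative helicase, by 1.07 and GINS2, which joins that helicase, by 0.91. TK1, thymidine kinase, went the other way and rose by 0.49. Of 25 genes of homologous recombination and the Fanconi pathway 22 were lower and 2 higher, with FANCD2 falling by 1.06 and RAD51AP1 by 0.92, while BRCA2 rose by 0.13. Of 30 mitotic genes 20 were lower and 8 higher. PRC1, of the central spindle, fell by 1.02 and AURKA, Aurora kinase A, by 0.81, while CDC25C, which starts mitosis, rose by 0.45.

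Of 8 inhibitors of cyclin-dependent kinases 6 were higher. CDKN2B, the inhibitor p15, stood at 6.52, 6.50 and 6.38 RPKM with JQ1 and at 2.89, 2.65 and 2.80 RPKM with DMSO. CDKN2D rose by 1.04, CDKN1A, the inhibitor p21, by 0.41, CDKN1B by 0.37, CDKN2C by 0.22 and CDKN3, a kinase-associated phosphatase, by 0.13 on the log2 scale. CDKN1C fell by 0.16, with a limma adjusted p of 0.04 that lay between 0.0568 and 0.121 when either of DMSO replicates 1 and 3 or any JQ1 replicate was left out. CDKN2A did not pass (log2 change −0.17, limma adjusted p = 0.13), but it was called lower with all 36 libraries in the fit (limma adjusted p = 0.0327) and with voom on the recovered reads (limma adjusted p = 0.0332).

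Of 24 genes of the BCL2 family, caspases and their regulators 9 were higher (37.5%) and 13 lower (54%). Of all tested genes 36% were higher and 41.6% lower. BCL2L11, the pro-death protein BIM, stood at 15.6, 15.6 and 15.1 RPKM with JQ1 and at 4.96, 4.99 and 5.29 RPKM with DMSO, and was the one member higher by 2-fold or more. BMF, another BH3-only protein, rose by 0.88, but was kept through the JQ1 libraries alone and had to differ by the filter. The BH3-only gene BID fell by 0.99, and the caspase inhibitor genes BIRC3 and XIAP by 0.96 and 0.63.

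**Figure D4:**
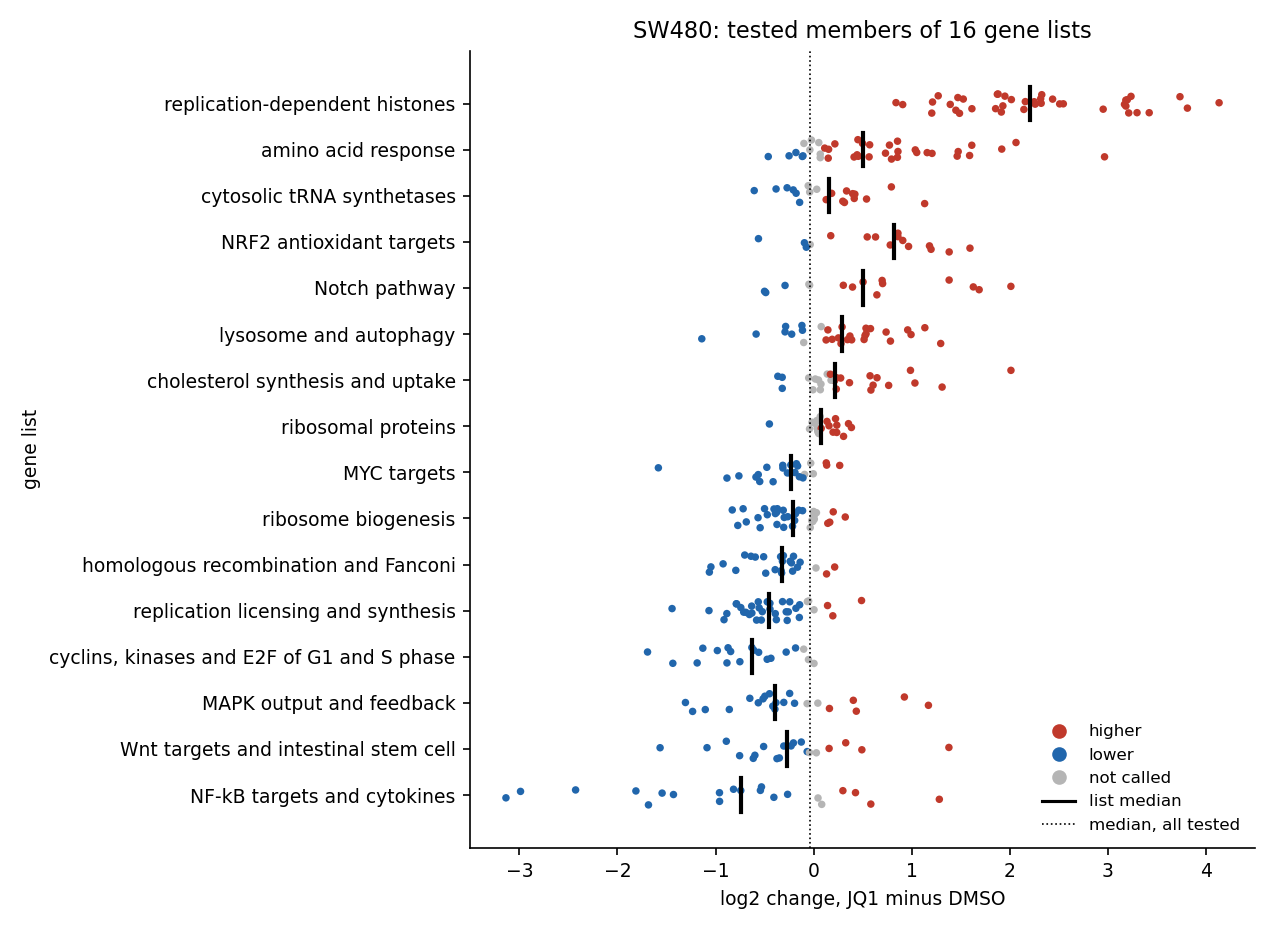
Each row is 1 of 16 gene lists in SW480 cells, each point 1 tested member at its log2 change, JQ1 minus DMSO (red called higher, blue called lower, grey not called), with the list's median as a black bar and the median of all tested genes as a dotted line. All points of the histone row lie above 0, with a median of 2.20. The medians of the G1 and S phase row, −0.63, and the NF-kB row, −0.74, are the lowest 2. Members kept through 1 group alone had to differ, among them 12 in the histone row and 7 in the NF-kB row.

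Among tested members, cytokine and NF-kB target genes had the lowest median of the lists, −0.74, but the filter bears on this median. Of 21 tested, 15 were lower and 4 higher, and 7 were lower by 2-fold or more. Of the 21, 5 passed the filter at 1 RPKM in the DMSO libraries alone and 2 in the JQ1 libraries alone, so these had to differ. Summed over all 34 members, JQ1 libraries held 177.7, 178.6 and 182.1 RPKM and DMSO libraries 233.5, 229.4 and 229.2 RPKM. Besides IL10, TNFRSF11B, which encodes osteoprotegerin, fell to 0.703, 0.574 and 0.497 RPKM with JQ1, against 7.46, 8.59 and 8.41 RPKM with DMSO. CSF2, the growth factor GM-CSF, fell to 0.201, 0.409 and 0.149 RPKM with JQ1, against 3.17, 3.77 and 3.61 RPKM with DMSO, on 16 and 214 reads in all. In DMSO their means were 8.69 RPKM for IL10, 8.15 RPKM for TNFRSF11B and 3.52 RPKM for CSF2. With JQ1 each of these genes lay under 1 RPKM in every library. SOD2, a mitochondrial superoxide dismutase and NF-kB target, went the other way, at 53.5, 52.9 and 53.1 RPKM with JQ1 and 22.2, 20.1 and 22.4 RPKM with DMSO.

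The MAPK pathway carries growth signals from receptors to the nucleus. Its output was lower in 15 of 22 tested genes and higher in 5, with a median of −0.39. Of the 22, 2 passed the filter at 1 RPKM in the DMSO libraries alone, so these had to differ. ETV4, an ETS factor, stood at 33.5, 34.1 and 35.8 RPKM with JQ1 and at 89.2, 81.6 and 87.4 RPKM with DMSO. The feedback inhibitor genes SPRY4 and SPRED2 fell by 1.23 and 0.86 on the log2 scale, while HBEGF, a ligand of the EGF receptor, and EGR1, an immediate early factor, rose by 1.17 and 0.93. Members of the AP-1 family were split, with 6 of 12 lower and 4 higher, against 41.6% and 36% of all tested genes. Of the 12, 2 passed the filter at 1 RPKM in the DMSO libraries alone, so these had to differ. FOSL1 fell to 34.1, 35.3 and 35.4 RPKM with JQ1, against 80.9, 83.1 and 82.3 RPKM with DMSO. FOS fell by 0.76, 1.64 ± 0.08 below the mean of the other lines. The FOS change in those lines ran from −0.02 in COLO205 to 2.75 in HCT15. BATF fell by 1.72, while JUND and JUN rose by 1.01 and 0.49.

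Wnt targets and intestinal stem cell genes were lower in 14 of 20 and higher in 4, with a median of −0.27. APCDD1, a Wnt inhibitor that is itself a target, stood at 76.6, 74.8 and 77.7 RPKM with JQ1 and at 229.8, 217.3 and 233.9 RPKM with DMSO. ASCL2, a stem cell transcription factor, fell by 1.09, LEF1, a partner of beta-catenin, by 0.89 and RNF43, a brake on Wnt receptors, by 0.75. EPHB3 and EPHB2, ephrin receptors of the crypt base, rose by 1.38 and 0.49. APCDD1 and RNF43 were below the mean of the other lines by more than 2-fold, with differences of −1.42 and −1.15. Of 26 genes of intestinal differentiation only 6 passed the filter. The brush border gene VIL1 fell by 1.09, HNF4A by 0.72, CDX2 by 0.39 and CEACAM1 by 1.57, while KLF4 and KLF5 rose by 0.59 and 0.26.

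Among lists that were higher on balance, targets of NRF2, the factor that turns on antioxidant genes, had 12 of 16 members higher and 3 lower, with a median log2 change of 0.82. NQO1, a quinone reductase, stood at 226.5, 222.1 and 219.4 RPKM with JQ1 and at 82.9, 85.5 and 86.8 RPKM with DMSO. HMOX1, heme oxygenase, rose 3.02-fold, 1.71 ± 0.06 above the mean of the other lines on the log2 scale. GCLC, which makes glutathione, and TXNRD1, thioredoxin reductase, rose by 1.20 and 1.18. KEAP1, which targets NRF2 for breakdown, fell by 0.56.

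The Notch pathway had 10 of 15 members higher and 3 lower, with a median of 0.50. The receptor gene NOTCH1 stood at 20.5, 22.3 and 21.9 RPKM with JQ1 and at 8.45, 7.75 and 7.67 RPKM with DMSO. DLL4, a ligand, rose by 2.01, LFNG, which glycosylates the receptors, by 1.63 and HES6 by 1.69, and all 3 were above the mean of the other lines by more than 2-fold. DLL4 lay between 0.339 and 0.372 RPKM in DMSO libraries and had to differ by the filter, and in HCT15 its log2 change was 1.71. The target gene HES1 and the ligand gene JAG1 fell by 0.50 and 0.49. Of 29 lysosome and autophagy genes 20 were higher and 7 lower, with a median of 0.29. NEU1, a sialidase, rose by 1.30, ULK1, which starts autophagy, by 1.13 and MAP1LC3B, of the autophagosome membrane, by 0.99, while TFEB, the master regulator of these genes, fell by 1.14. Of 26 cholesterol genes 15 were higher and 3 lower, and 1 passed the filter at 1 RPKM in the JQ1 libraries alone, so it had to differ. TM7SF2, a sterol reductase, rose by 2.01 and LSS, lanosterol synthase, by 1.03.

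Interferon and antigen presentation genes moved both ways. Of 24 tested, 13 were higher (54%) and 7 lower (29%), against 36% and 41.6% of all tested genes. Of the 24, 2 passed the filter at 1 RPKM in the DMSO libraries alone, so these had to differ. IRF7, a factor for interferon genes, stood at 30.0, 32.2 and 35.7 RPKM with JQ1 and at 7.57, 6.58 and 6.68 RPKM with DMSO. HLA-E, a non-classical class I molecule, rose by 1.13. IFITM1 fell to 0.712, 0.742 and 0.921 RPKM with JQ1, against 4.91, 5.48 and 6.73 RPKM with DMSO, so that it had to differ by the filter. Its log2 change was −2.26 in SW480, 1.56 below the mean of the other lines, but was −2.12 in HCT15.

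Genes of epithelial and other cell types moved in both directions. Keratins of simple epithelium stayed abundant: KRT8 and KRT19 rose by 0.33 and 0.36, and KRT18 rose by 0.21 but lay at −0.07 after quantile scaling, where it was not called. KRT23 stood at 161.6, 165.6 and 161 RPKM with JQ1 and at 503.6, 511.7 and 512.6 RPKM with DMSO, a 3.12-fold fall. Of 20 junction genes 11 were lower and 5 higher, with CLDN7 falling by 1.32, EPCAM by 0.66 and CDH1, E-cadherin, by 0.48, while JUP, plakoglobin, rose by 0.71. Of 17 mesenchymal and matrix genes 9 were higher and 5 lower, with CCN2 rising by 1.52, ZEB1 by 0.88 and MMP14 falling by 1.44. Of 8 neuroendocrine markers 5 passed the filter and all 5 were higher, led by SYP, synaptophysin, at 5.50, 5.61 and 5.22 RPKM with JQ1 and 2.40, 2.39 and 2.51 RPKM with DMSO. The summed level of all 8 was 51.7 to 53.6 RPKM with JQ1 and 40.6 to 44.0 RPKM with DMSO, 1 of the 8 was at 0 in all 6 libraries, and the part of such cells in the results was not tested.

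The SW480 response differed by more than 2-fold from the mean response of the other 5 lines in 271 genes, 98 above it (0.743%) and 173 below it (1.31%). The mean can hide a line that moved like SW480: in 24 of the 50 such genes named here with values, at least 1 other line came within 2-fold of the SW480 change or went beyond it. DPYSL3 had a log2 change of 3.67 in SW480 and 4.90 in HT29, and DHRS2 of 3.90 in SW480 and 3.79 in HCT116. The 6 highest differences were those of ART5, H1-4, CHAC1, ASNS, SCT and SLC7A11, from 4.15 to 2.40 on the log2 scale. ART5 was also higher in HT29, at 4.62 ± 0.419 RPKM with JQ1 against 0.0379 ± 0.0329 RPKM with DMSO (SD, n = 3 each). SCT, the hormone secretin, stood at 3.82, 3.31 and 3.10 RPKM with JQ1 and at 0.219, 0.0764 and 0.451 RPKM with DMSO in SW480 and reached at most 0.183 RPKM on average in the other lines with JQ1.

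Of the genes with the lowest differences, several were scarcely expressed in the other lines, and there a fall of that size could not have been seen. Values near 0 in those lines also shrink the pooled scatter, so the test of these differences may rest on too small a spread. ZAP70 had a mean of at most 0.527 RPKM in DMSO in any other line, IL10 of at most 0.225 and CPLX2 of at most 0.0882. FGF3 reached 2.70 RPKM in DMSO in COLO205, where its log2 change was −1.68, and at most 0.115 RPKM in DMSO in the other 4 lines. TNFRSF11B stood at 6.59 ± 0.31 RPKM with JQ1 and 2.92 ± 0.0279 RPKM with DMSO in COLO205 (SD, n = 3 each). UGT1A3 and UGT1A5 completed the 6 lowest. They belong to a locus of glucuronosyltransferase genes that share exons, so reads cannot be split between them, and its 9 tested genes had log2 changes from −2.88 to −2.81. Their means ran from 1.48 to 1.67 RPKM with JQ1 and from 13.4 to 15.4 RPKM with DMSO. The lines with most UGT1A3 transcript differed from SW480. COLO205 had 125.5 ± 1.82 RPKM with JQ1 and 149.4 ± 2.55 RPKM with DMSO, and HT29 had 178.2 ± 2.85 RPKM with JQ1 and 145.6 ± 1.17 RPKM with DMSO.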

How the data were processed

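RNA was sequenced from SW480 and 5 other colon cancer lines, in 3 libraries per group; per the labels' protocols, libraries were made with a TruSeq kit after a DNase step. The labels state neither strand nor read length, so overlapping antisense genes cannot be told apart. The deposited values are RPKM, computed by the authors; the submitters' processing notes name GSNAP, DESeq, limma and the build NCBIM37, a mouse assembly name although the genes carry human Entrez numbers. No position was therefore taken from the files, and RefSeq (GRCh38.p14) gave symbols for 24519 of 26468 genes and the promoters. Versions are not given in the sources used here. Whole reads were recovered from the RPKM steps (100% of 23499 genes above 0 within 0.01 read); counting floors would cover counting error only. Among genes tested, 92 repeat another gene's values.

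Tests used limma 3.58.1 in R 4.3.3 on log2(RPKM + 0.5) over the 6 SW480 libraries, with moderated variances and a trend (4 residual and 3.83 prior degrees of freedom), two-sided, with Benjamini-Hochberg adjustment over 13186 genes. The difference from the other lines was fitted over 36 libraries and 12 groups, with limma treat at 2-fold. That fit pools 1 spread per gene over all groups, which can be too small for genes near 0 in other lines. It does not cover the spread between the other 5 lines. Alternatives were other scalings, pseudocounts, filters and fits, voom on the recovered reads, a replicate block and leaving out each library. Replicates differed by more than sampling noise (chi-square per gene 1.77 to 2.9), so none was merged. Tables and figures used Python 3.11.15, pandas 2.3.3, numpy 2.4.6 and matplotlib 3.10.9.

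The comparison, the 43 gene lists and the rule for named genes were chosen with earlier results of these data known. Named were the BET readout genes, MYC, CDKN1A and ATF4, the 10 largest rises and falls, the 5 largest in RPKM, the leading members of each list (up to 4, and up to 3 the other way), and the 6 highest and lowest differences from the other lines. Not every gene that the rule picks is described, and some genes and 1 list are not reported here. OAZ1, OAZ2 and OAZ3 of the polyamine list were not matched. Fold changes of genes near 0 depend on the pseudocount.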

Additional observations from a re-analysis of the deposited data

Results flagged for a closer look

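In 50 of the genes named with values, the change with JQ1 in SW480 differed from the mean change of the other 5 lines by more than 2-fold (limma treat on all 36 libraries, adjusted p under 0.05). All values are differences of log2 changes, SW480 minus the mean of the other lines.

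In the amino acid response and tRNA charging, the differences were 2.76 for CHAC1, 2.48 for ASNS, 2.40 for SLC7A11, 2.16 for PSAT1, 1.98 for PCK2, 1.95 for DDIT4, 1.94 for TRIB3, 1.65 for CTH, 1.59 for SESN2, 1.38 for MTHFD2, 1.30 for PHGDH, 1.23 for DDIT3, 1.09 for ATF4, 1.44 for AARS1 and 1.11 for GARS1. Among genes of other pathways that lay above the mean of the other lines, they were 1.76 for DLL4, 1.28 for HES6, 1.26 for LFNG, 1.71 for HMOX1, 2.76 for H1-4 and 1.94 for H4C8. Among the largest rises they were 4.15 for ART5, 2.28 for DHRS2, 2.19 for FGFR3, 2.07 for ROPN1L, 1.68 for AHNAK2, 1.57 for DPYSL3, 1.48 for LINC00052, 1.43 for TXNIP and 1.24 for EFR3B, and for the hormone gene SCT 2.44.

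A difference from the mean does not set SW480 apart from each line. In 24 of the 50 genes at least 1 other line came within 2-fold of the SW480 change or went beyond it, and in 3 it went beyond. These 3 were DPYSL3, at 3.67 in SW480 and 4.90 in HT29, LINC00052, at 2.56 in SW480 and 3.79 in HT29, and TXNIP, at 2.88 in SW480 and 2.98 in HT29. DHRS2 was at 3.90 in SW480 and 3.79 in HCT116, EFR3B at 3.29 in SW480 and 3.04 in HCT15, H4C8 at 4.14 in SW480, 3.80 in COLO205 and 3.08 in HCT15, and DLL4 at 2.01 in SW480 and 1.71 in HCT15. HMOX1 in SW480 lay 0.34 above its change in HT29.

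Below the mean of the other lines lay ZAP70 at −3.24, IL10 at −3.06, TNFRSF11B at −2.97, CPLX2 at −2.90, UGT1A3 at −2.86, UGT1A5 at −2.85, TRPV2 at −2.74, FGF3 at −2.54, RLBP1 at −2.53, EPS8L3 at −2.21, TM4SF1 at −2.12, SEMA6B at −2.03 and CSF2 at −2.02. Regulators of growth and adhesion among them were FOS at −1.64, IFITM1 at −1.56, CDK6 at −1.52, APCDD1 at −1.42, CLDN7 at −1.26 and RNF43 at −1.15. For ZAP70, IL10 and CPLX2 no other line reached a mean of 1 RPKM in DMSO, and for FGF3 only COLO205 did, where its log2 change was −1.68. Log2 changes in single other lines were −2.01 for EPS8L3 in COLO205, −1.96 for RLBP1 in COLO320, −1.86 for CSF2 in COLO205 and −2.12 for IFITM1 in HCT15. For FOS they ran from −0.02 in COLO205 to 2.75 in HCT15, with −0.76 in SW480.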

How the results depend on the processing

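The counts of higher and lower genes lay within 1.5 times the reported ones under every alternative run. With each library left out in turn, genes higher numbered 4501 to 4617 and lower 5210 to 5323, genes higher 2-fold or more 487 to 513 and lower 702 to 748, and genes that differed from the other lines by more than 2-fold 252 to 258. Requiring a mean of at least 5 RPKM gave 280 genes higher and 348 lower by 2-fold or more, 129 that differed from the other lines, and 20 histones higher, 2 MYC network genes higher, and 1 intestinal differentiation gene, 8 NF-kB targets and 5 TGF-beta genes lower. That filter tests fewer genes by its construction. Quantile scaling, here over all 36 libraries, gave 530 genes that differed from the other lines, and the cause was not tested. The amino acid response genes above the other lines numbered 15 to 19 over all alternatives. Voom on the recovered reads called 4844 genes higher and 5570 lower. Of the 180 genes named with values, 179 were called and 175 were called under every alternative run in which they were tested. LDHA (−0.0441, limma adjusted p = 0.257) and KRT18 (−0.0655, limma adjusted p = 0.265) changed sign under quantile scaling. CDKN1C lost its call under quantile scaling, median centring and both wider filters on genes.

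Libraries of the same replicate number did not deviate together, at r = −0.171, 0.0247 and −0.0324 for numbers 1 to 3, not every library correlated best with its own number, and the numbers were not taken as pairs. With the replicate block, 4572 genes were higher and 5311 lower, 488 and 740 by 2-fold or more, and 261 differed from the other lines. Folds of low genes depend on the pseudocount: 633 genes were higher and 925 lower by 2-fold or more with 0.1, and 374 and 520 with 1.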

Other observations

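Metabolic genes that the report does not describe moved in both directions. Of 20 genes of nucleotide synthesis 13 were lower with JQ1 and 2 higher, with a median log2 change of −0.27. TYMS, thymidylate synthase, had a mean of 103.5 ± 1.69 RPKM with JQ1 and 152.2 ± 1.78 RPKM with DMSO (SD, n = 3 each), while IMPDH2, which makes guanine nucleotides, rose by 0.80. Of 24 genes of glycolysis and the hypoxia response 14 were higher and 7 lower. The aldolase gene ALDOC rose by 1.68 and HIF1A, the hypoxia factor, by 0.46, while the glucose transporter gene SLC2A3 fell by 0.44. Polyamine metabolism had 6 of 13 members higher (46%) and 5 lower (38%), against 36% and 41.6% of all tested genes. Of the 13, 1 passed the filter at 1 RPKM in the JQ1 libraries alone, so it had to differ. SAT1, which breaks polyamines down, rose by 1.12 and SMS, spermine synthase, fell by 0.62. Of 9 metallothioneins and zinc transporters tested 5 were higher and 3 lower, with MT2A rising by 0.65 and MT1F falling by 1.16. Of the 9, 1 passed the filter at 1 RPKM in the JQ1 libraries alone, so it had to differ. Metallothionein genes resemble each other, so reads may be split between copies.

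Of 17 genes of TGF-beta and BMP signalling 7 were higher and 8 lower, against 36% and 41.6% of all tested genes. Of the 17, 2 passed the filter at 1 RPKM in the DMSO libraries alone, so these had to differ. The target genes ID1 and ID3 rose by 1.24 and 0.88, and the receptor gene TGFBR2 fell by 0.93. Heat shock genes had 6 of 15 members higher (40%) and 8 lower (53%), against the same 36% and 41.6%. The small heat shock protein gene HSPB1 fell by 0.79 and its partner in aggregate clearance, BAG3, rose by 0.61. Of 18 deacetylases and other chromatin factors 8 were higher (44%) and 8 lower (44%), near the shares of all tested genes. The sirtuin genes SIRT1 and SIRT2 rose by 1.00 and 0.94 and the acetyltransferase gene KAT2A fell by 1.09. Of 14 housekeeping genes 8 were higher and 2 lower, against 77.6% called of all tested genes, with B2M, the light chain of class I molecules, rising by 0.80 and ACTB falling by 0.15. Among abundant transcripts, the ferritin light chain gene FTL had 1713 ± 30.3 RPKM with JQ1 and 997 ± 25.8 RPKM with DMSO, the mitochondrial ribosomal RNA gene RNR2 rose by 0.84 and the actin regulator PFN1 fell by 0.31.

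The share of genes that changed by 2-fold or more depended on the filter in low genes. Among the 3297 genes of lowest mean level 5.58% were higher and 10.9% lower by 2-fold or more, and among the 3297 of highest mean level 2.49% and 2.18%. Those of lowest mean level include 592 genes that reached 1 RPKM in the libraries of 1 group alone, which had to differ, and without these 3.07% were higher and 5.77% lower. Of protein-coding genes without histones, the 2866 with the shortest genomic span had 4.4% higher and 6.66% lower by 2-fold or more, and the 2866 with the longest 2.86% and 6.11%. In 9 genes all DMSO libraries lay under 0.5 RPKM and all JQ1 libraries at 2 RPKM or more, and in 25 the reverse held.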
